A study of Mus musculus with 6 samples.

Results

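Foreign compounds, and many steroids and signalling molecules, are cleared by enzymes that first oxidise them and then attach a water-soluble group. The 94 genes described here encode the main families of both steps as the array measured them: 5 flavin-containing monooxygenases (*Fmo*), 54 cytochrome P450 enzymes of families 1, 2 and 3 (*Cyp1*, *Cyp2*, *Cyp3*), 17 glutathione transferases (*Gsta*, *Gstm*, *Gstp*, *Gstt*, *Gsto*), 16 sulfotransferases (*Sult*) and the 2 synthases *Papss1* and *Papss2*. The families were picked with earlier results of these data known, and the members were then taken by gene symbol, from the 19938 genes of the array that a probe set names singly, and a gene with more than 1 probe set was read from its brightest one, by the mean of all 6 arrays. A further 14 genes of these families were measured only by probe sets that name several genes and are not among the 94.

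Flavin monooxygenases and cytochrome P450 enzymes add oxygen to their substrates in the endoplasmic reticulum. Glutathione transferases join glutathione to reactive electrophiles, including products of lipid peroxidation. Sulfotransferases move sulfate from the donor PAPS (3'-phosphoadenosine 5'-phosphosulfate) to alcohols, phenols and sterols, and PAPS is made by the PAPSS enzymes, which also feed the sulfation of proteins and matrix sugars. The liver is the best known site of these enzymes, while surface epithelia such as skin, lung and esophagus carry their own smaller set.

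RNA came from the esophageal epithelium of 6 mice aged 3 months on a mixed genetic background. The 3 animals labelled mutant (ED-L2-Cre/Klf4loxp/loxp) carried floxed copies of *Klf4*, which encodes a transcription factor of differentiating epithelium, together with a Cre transgene driven by the ED-L2 promoter of squamous epithelium. The 3 animals labelled control were littermates matched for sex with the same floxed gene (Klf4loxp/loxp) and no Cre. Each group held 1 male (replicate 1) and 2 females (replicates 2 and 3), and each array was 1 animal. The floxed gene was thus shared by all 6 animals, and no animals with Cre alone are part of the comparison. Values are log2 signals, and each difference is the arrays labelled mutant minus the arrays labelled control.

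*Klf4* itself read 10.28, 10.50 and 10.28 on the arrays labelled mutant, against 9.75, 10.15 and 10.06 on the arrays labelled control. The signal of the targeted gene was therefore not lower on the arrays labelled mutant (difference 0.37 ± 0.13, SE; limma adjusted p = 0.314). Which exons are floxed and where the probes lie are not known here, and probes beyond the floxed exons would check nothing. Directions below therefore rest on the labels. Of the 16 squamous epithelium markers, 15 were above the level used here for detection in controls, while 10 of 11 hepatocyte markers were not. That level was the 40th percentile of the mean signal of all genes, 4.72 on the log2 scale, and a gene counted as detected in a group when all 3 arrays reached it. The level is a convention for this table and not a call made by the array software.

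Detection in controls differed by family. In all, 31 of the 94 genes were detected on the control arrays, against 11446 of the 19938 genes of the whole array, or 33.0% against 57.4%. The glutathione transferases were mostly detected, 13 of 17, and all 7 *Gstm* and both *Gsta* genes were among them. Detected P450 genes numbered 12 of 54: *Cyp1b1*, 10 of the 45 *Cyp2* genes and *Cyp3a13*. Among the *Cyp2* genes these were *Cyp2b10*, *Cyp2c65*, *Cyp2c66*, *Cyp2d22*, *Cyp2f2*, *Cyp2j6*, *Cyp2s1*, *Cyp2u1*, *Cyp2w1* and *Cyp2d37-ps*, the last a pseudogene by its symbol. Of the 16 sulfotransferases only *Sult2b1* and *Sult1d1* were detected, along with *Papss1* and the monooxygenases *Fmo1*, *Fmo2* and *Fmo5*. *Fmo9*, *Papss2* and *Gstp3* reached the level on all arrays labelled mutant and not on all control arrays, and *Gstt1* did the opposite. The other 60 genes were detected in neither group, with control means between 2.22 and 4.64 and differences between -0.33 and 0.47. At such signals a change cannot be told from background, and they are not described further one by one.

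**Figure D1:**
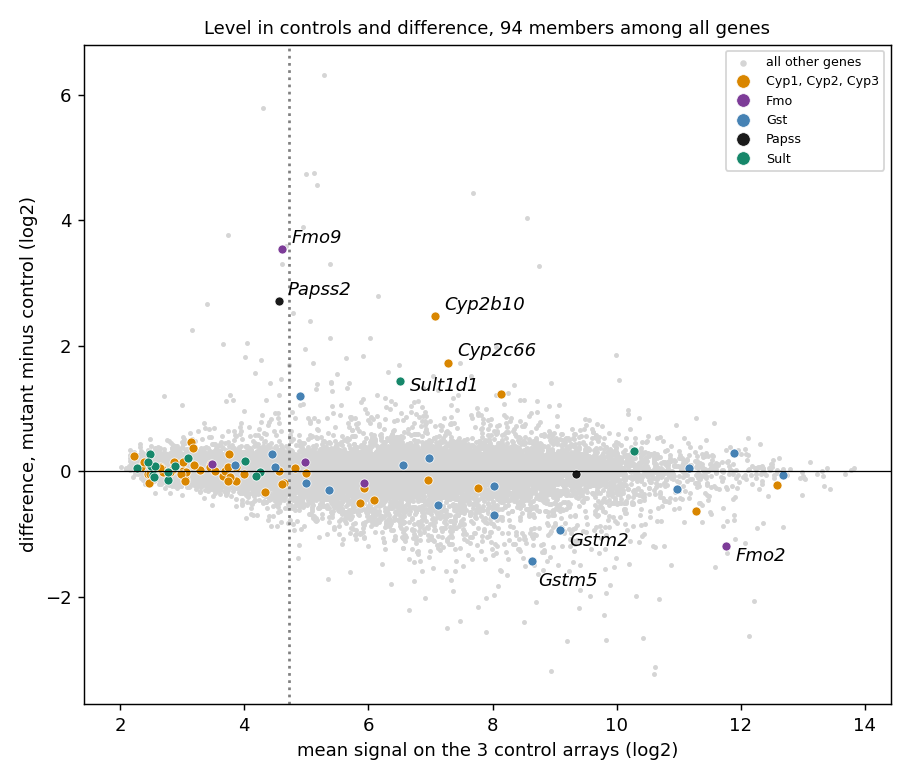
Each point is a gene, with its mean signal on the 3 control arrays (log2) on the horizontal axis and its difference, mutant minus control (log2), on the vertical axis. Coloured points are the 94 genes by family, grey points all other genes, and the dotted line marks 4.72. Most *Cyp* and *Sult* genes lie left of the line near 0, and *Fmo9* (3.54), *Papss2* (2.71) and *Cyp2b10* (2.47) lie highest among the 94.

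The main comparison asked which of these genes differed when *Klf4* was targeted. *Fmo9*, *Papss2* and *Cyp2b10* rose 11.7-fold, 6.56-fold and 5.55-fold, and the glutathione transferases *Gstm5* and *Gstm2* fell 2.68-fold and 1.92-fold. The control means of *Fmo9* and *Papss2* lay under the detection level, so the sizes of these 2 rises are uncertain. The other 89 genes did not pass an adjusted p of 0.05. The 5 calls were 5.32% of the 94 genes, where 1.04% of all genes passed, a description only, since the families were picked with results known: 3 rose, where 0.366% of all genes did, and 2 fell, where 0.672% did. By the looser measure of groups that did not overlap, 18 of the 94 genes separated (19.1%), close to the 18.1% of all genes: 13 higher, where 10.1% of all genes were, and 5 lower, where 8.00% were. An unadjusted p under 0.05 was reached by 16 of the 94, 11 higher and 5 lower, where 5.79% and 6.63% of all genes reached it in those directions (12.4% in all). The difference was above 0 for 51 of the 94 and below 0 for 43, with a median difference of 0.011, beside 0.022 over all genes. Most of the 94 were detected in neither group, and they weigh on these counts. Of the 31 genes detected in controls, 11 were higher and 20 lower. Among the genes that separated higher, *Cyp2b9*, *Cyp2c38*, *Cyp2t4*, *Cyp3a16*, *Gsto2* and *Sult1b1* were detected in neither group. Of these, *Cyp2b9*, *Cyp2c38*, *Gsto2* and *Sult1b1* also had an unadjusted p under 0.05. The test was limma over all 19938 genes with Benjamini-Hochberg adjustment. The 5 genes kept their direction in all 18 alternatives, but few calls outlasted the loss of an array. Of the 5 calls 2, 2 and 1 remained without mutant 1, 2 and 3, and 2, 3 and 1 without control 1, 2 and 3.

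**Figure D2:**
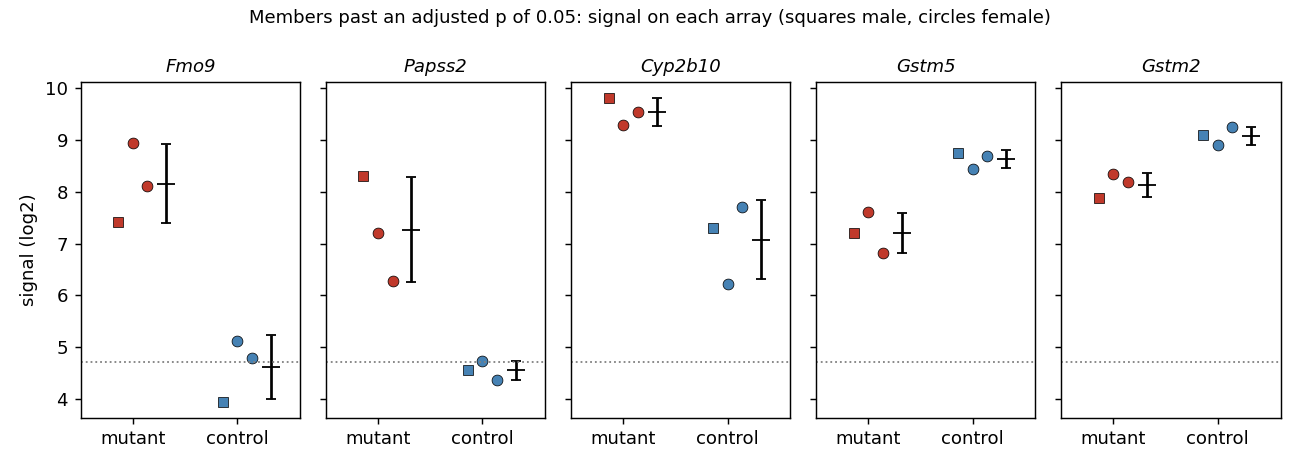
Signal (log2) of the 5 genes that passed, for each array labelled mutant (red) and control (blue). Squares are males, circles females, the bar beside each group is its mean ± SD (n = 3), and the dotted line marks 4.72. In each panel the groups do not overlap.

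Among the flavin monooxygenases, *Fmo9* rose and the other 4 did not pass. *Fmo9* read 7.42, 8.94 and 8.11 on the arrays labelled mutant, against 3.93, 5.12 and 4.79 on the arrays labelled control. Every array labelled mutant lay above every control array, by a wide margin. The difference was 3.54 ± 0.42 (SE; limma adjusted p = 0.0147), alike in the male pair (3.49) and in the females (3.57). The control mean was 4.61. The call was lost without mutant 3 and without control 3, where the adjusted p reached at most 0.0694.

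*Fmo2*, the main flavin monooxygenase of the lung in many mammals, read 10.01, 10.78 and 10.95 on the arrays labelled mutant, against 11.77, 11.76 and 11.77 on the arrays labelled control. The 3 control animals were nearly identical and all 3 mutants lay below them, the male lowest. The difference, -1.18 ± 0.23 (SE), did not pass (limma adjusted p = 0.0693), but it passed without mutant 1 (-0.90, adjusted p = 0.0372), with an intensity trend (adjusted p = 0.0497) and with array weights (adjusted p = 0.0311). *Fmo1* and *Fmo5* differed by 0.15 ± 0.11 and -0.19 ± 0.16 with overlapping groups. In the annotation's order, *Fmo4*, *Fmo1* and *Fmo2* are neighbours on chromosome 1, and *Fmo9* lies apart from them on the same chromosome. *Fmo4* was detected in neither group.

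Among the P450 genes, *Cyp2b10* rose and the other 53 did not pass. *Cyp2b10*, known in mouse liver as a gene switched on by the receptor CAR after phenobarbital, read 9.82, 9.29 and 9.53 on the arrays labelled mutant, against 7.30, 6.23 and 7.70 on the arrays labelled control. The mutant arrays were close to each other and above all controls, and the difference was 2.47 ± 0.35 (SE; limma adjusted p = 0.0243). The male pair differed by 2.52 and the females by 2.45. The call held without any 1 control array and was lost without any 1 mutant array, where the adjusted p reached at most 0.0956.

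*Cyp2c66* and *Cyp2c65*, neighbouring genes on chromosome 19 whose enzymes oxidise arachidonic acid, had higher values on the arrays labelled mutant without passing. *Cyp2c66* read 9.88, 8.53 and 8.64 on the arrays labelled mutant, against 8.06, 6.91 and 6.88 on the arrays labelled control. *Cyp2c65* read 9.86, 9.00 and 9.25 on the arrays labelled mutant, against 8.72, 7.63 and 8.08 on the arrays labelled control. For both genes the groups did not overlap, and in each group the male was highest. Their differences were 1.73 ± 0.43 and 1.23 ± 0.31 (SE; limma adjusted p = 0.135 for each). With sex as a covariate both passed, at adjusted p = 0.00227 for *Cyp2c66* and 0.0262 for *Cyp2c65*, and *Cyp2c66* also passed in the females alone (1.69, adjusted p = 0.0190). The 2 genes are close in sequence, and signal can be shared between their probe sets. The other 11 *Cyp2c* genes were detected in neither group.

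Other detected P450 genes gave small or variable differences. *Cyp2f2*, the naphthalene-oxidising P450 of mouse airway, read 12.35, 12.47 and 12.26 on the arrays labelled mutant, against 12.76, 12.42 and 12.55 on the arrays labelled control. These values are among the highest of all genes but lie under the array maxima of 13.99 to 14.67. The groups overlapped (-0.22 ± 0.12, SE; limma adjusted p = 0.536). *Cyp2s1*, a P450 of surface epithelia that the aryl hydrocarbon receptor can induce, read 10.02, 11.23 and 10.73 on the arrays labelled mutant, against 11.19, 11.26 and 11.41 on the arrays labelled control. Its difference of -0.63 ± 0.27 (adjusted p = 0.408) was carried mainly by the male mutant. *Cyp2w1* was lower on every array labelled mutant, at 5.49, 5.16 and 5.46, against 6.02, 5.87 and 5.73 on the arrays labelled control, and did not pass (-0.50 ± 0.13, SE; adjusted p = 0.148). *Cyp3a13*, the only detected *Cyp3* gene, differed by -0.26 ± 0.24 (adjusted p = 0.743) with overlapping groups.

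*Cyp1b1*, a target of the aryl hydrocarbon receptor that is also expressed in fibroblasts, split by animal. It read 5.96, 5.56 and 5.39 on the arrays labelled mutant, against 5.11, 6.35 and 6.81 on the arrays labelled control. The male pair differed by 0.85 and the females by -1.11, so the overall difference of -0.46 ± 0.40 (SE; adjusted p = 0.728) describes neither. The difference between the sexes did not pass (limma interaction, adjusted p = 0.458). *Cyp1a1* and *Cyp1a2*, the other aryl hydrocarbon receptor targets of this family, were detected in neither group.

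**Figure D3:**
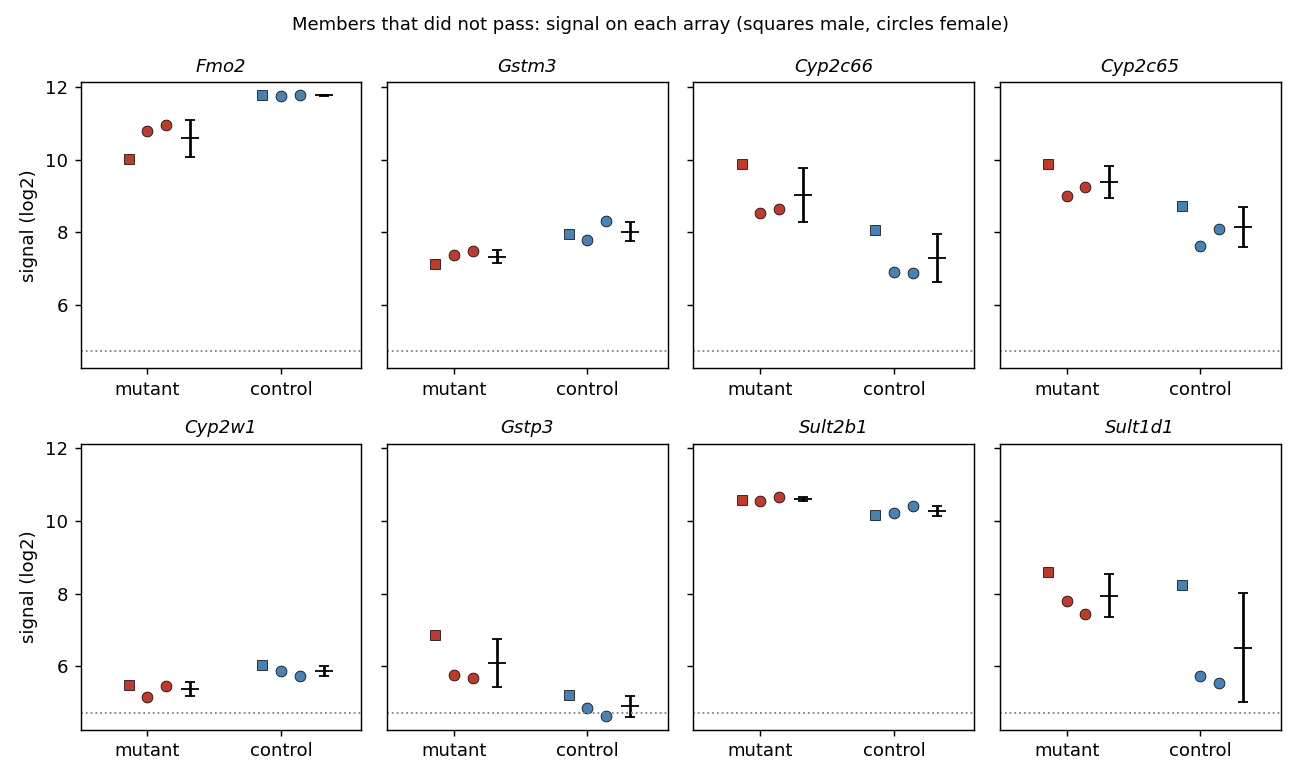
Signal (log2) of 8 genes that did not pass, for each array labelled mutant (red) and control (blue). Squares are males, circles females, bars the mean ± SD (n = 3) and the dotted line 4.72. The groups overlap in *Sult1d1* alone, where the male control (8.24) lies above the 2 female mutants.

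The mu class of glutathione transferases, a row of 7 neighbouring genes on chromosome 3, was lower in 6 of its 7 members, with a median difference of -0.53 beside 0.022 over all genes. *Gstm5* read 7.20, 7.61 and 6.82 on the arrays labelled mutant, against 8.76, 8.43 and 8.70 on the arrays labelled control. The groups were well separated, and the difference was -1.42 ± 0.20 (SE; limma adjusted p = 0.0241). *Gstm2* read 7.88, 8.34 and 8.20 on the arrays labelled mutant, against 9.09, 8.90 and 9.26 on the arrays labelled control, a difference of -0.94 ± 0.15 (adjusted p = 0.0357). All mutant arrays were again below all control arrays. *Gstm5* passed in 2 of the 6 fits that left out an array and *Gstm2* in 0 of 6, with adjusted p up to 0.121 and 0.156. *Gstm2* also lost its call with each array centred on its median.

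Of the other mu-class genes, *Gstm3* read 7.13, 7.37 and 7.48 on the arrays labelled mutant, against 7.96, 7.78 and 8.31 on the arrays labelled control (-0.69 ± 0.16, SE; adjusted p = 0.111). A second probe set of *Gstm3*, dimmer by the mean of all 6 arrays, differed more, by -2.27 ± 0.40 (SE). It also did not pass among all probe sets (limma adjusted p = 0.0570). It read 5.40, 6.20 and 6.24 on the arrays labelled mutant, against 8.48, 7.33 and 8.87 on the arrays labelled control. In controls 1 and 3 it was thus the brighter of the 2, and the choice by mean signal took the probe set with the smaller difference. The 2 probe sets share a direction and disagree on its size. By number, the second falls between the probe sets of *Gstm6* and *Gstm2*, the neighbours of *Gstm3* on chromosome 3. The chosen one falls among probe sets of chromosome 10 genes, such as *Sult3a1* and *Gpx4*. It may therefore read another locus, which was not tested, and the value given for *Gstm3* is uncertain. *Gstm1*, *Gstm6* and *Gstm7* differed by -0.28 ± 0.17, -0.53 ± 0.24 and -0.29 ± 0.16 with overlapping groups. *Gstm4*, named after its values were seen, was the member above 0, at 0.21 ± 0.21, with -0.40 in the male pair and 0.52 in the females. The *Gstm* genes are close paralogs, so probe sets can share signal and each member's own value is uncertain.

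The other glutathione transferase classes held no gene that passed. *Gsta4*, whose enzyme clears the lipid peroxidation product 4-hydroxynonenal, read 12.46, 12.67 and 12.75 on the arrays labelled mutant, against 12.81, 12.50 and 12.76 on the arrays labelled control. Its difference was -0.061 ± 0.126 (SE; limma adjusted p = 0.905), and its signal was among the highest of all genes. *Gstp1*, an abundant transferase of squamous epithelia, read 11.91, 12.28 and 12.39 on the arrays labelled mutant, against 12.01, 11.61 and 12.08 on the arrays labelled control, and the groups overlapped (0.29 ± 0.17, adjusted p = 0.567). *Gsto1*, of the omega class, differed by 0.056 ± 0.126. *Gsta3*, *Gstt1* and *Gstt3* differed by 0.11 ± 0.23, -0.19 ± 0.13 and -0.24 ± 0.18. In each of these 6 genes the groups overlapped. *Gstp3*, singled out after its values were seen, read 6.85, 5.76 and 5.66 on the arrays labelled mutant, against 5.20, 4.84 and 4.64 on the arrays labelled control. Its groups did not overlap, and its difference of 1.19 ± 0.31 (adjusted p = 0.154) passed only with sex as a covariate (adjusted p = 0.0332). *Gstp1* and *Gstp3* are close in sequence and in position.

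In the sulfate branch, the donor synthases behaved differently. *Papss2* read 8.31, 7.20 and 6.28 on the arrays labelled mutant, against 4.57, 4.72 and 4.36 on the arrays labelled control. All mutant arrays lay above all controls, but they spread over 2 log2 units, highest in the male. The difference was 2.71 ± 0.44 (SE; limma adjusted p = 0.0398), 3.74 in the male pair and 2.20 in the females, and the control mean was 4.55. It passed without mutant 1 and without mutant 3, and did not pass without mutant 2 or without any 1 control array, where the adjusted p reached at most 0.170. *Papss1*, the other synthase, read 9.46, 9.28 and 9.19 on the arrays labelled mutant, against 9.55, 9.12 and 9.38 on the arrays labelled control (-0.043 ± 0.136, adjusted p = 0.938). The 95% interval of the *Papss1* difference was -0.36 to 0.27.

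*Sult2b1*, which sulfates cholesterol in stratified epithelium, read 10.58, 10.55 and 10.66 on the arrays labelled mutant, against 10.17, 10.23 and 10.42 on the arrays labelled control. The groups did not overlap, by a small step of 0.32 ± 0.10 (SE), which did not pass (limma adjusted p = 0.245). *Sult1d1*, known to sulfate catecholamines and other phenols in mice, read 8.60, 7.79 and 7.43 on the arrays labelled mutant, against 8.24, 5.74 and 5.55 on the arrays labelled control. The male control was near the mutants and the 2 female controls were far below them. The difference over all 6 arrays was 1.43 ± 0.68 (adjusted p = 0.464). It was 0.36 in the male pair and 1.97 in the females, where it passed (adjusted p = 0.0221), as it did without control 1 (2.30, adjusted p = 0.0340). The difference between the sexes itself did not pass (limma interaction, adjusted p = 0.517), and each sex and genotype held at most 2 animals. None of the 94 genes passed that interaction test in limma, where 10 had an unadjusted p under 0.05 (10.64%), and 9 of all 19938 genes passed, with 5.82% of them at an unadjusted p under 0.05.

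**Figure D4:**
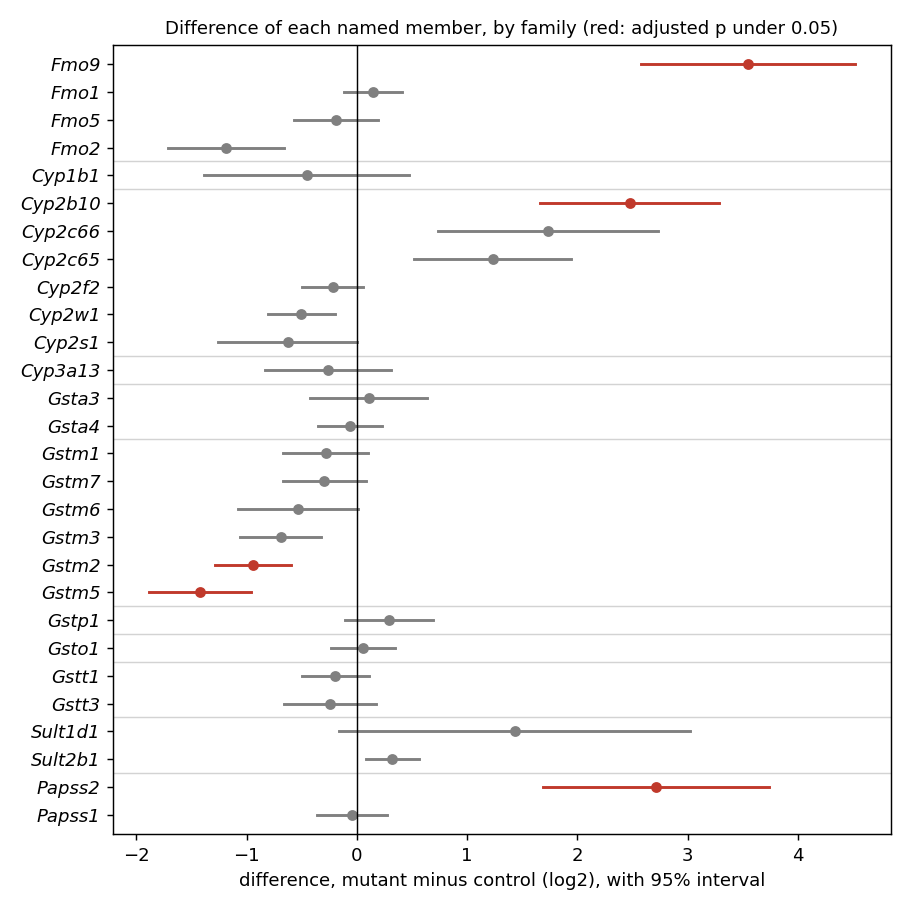
Difference, mutant minus control (log2), of 28 genes grouped by family, each with its 95% interval from the limma fit over 3 arrays a group. Red marks the 5 genes that passed. The intervals of *Gstm3*, *Fmo2*, *Cyp2c66*, *Cyp2c65*, *Cyp2w1* and *Sult2b1* do not reach 0 either, but their p-values did not pass once adjusted over all genes.

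The promoters of the 5 genes that passed are shown because *Klf4* encodes a DNA-binding factor of the family that binds CACCC elements. Each runs from 250 bases before to 50 after an annotated start, in RefSeq's annotation of GRCm38.p6. Capitals mark CACCC on either strand (printed as CACCC or its reverse complement GGGTG).
*Fmo9* promoter, chr1:166681796-166682095, minus strand: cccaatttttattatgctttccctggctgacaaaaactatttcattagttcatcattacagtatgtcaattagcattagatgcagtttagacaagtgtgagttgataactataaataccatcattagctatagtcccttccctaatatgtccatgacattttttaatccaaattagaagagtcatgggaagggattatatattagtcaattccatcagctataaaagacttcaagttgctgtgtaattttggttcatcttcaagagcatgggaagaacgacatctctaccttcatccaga
*Papss2* promoter, chr19:32595465-32595764, plus strand: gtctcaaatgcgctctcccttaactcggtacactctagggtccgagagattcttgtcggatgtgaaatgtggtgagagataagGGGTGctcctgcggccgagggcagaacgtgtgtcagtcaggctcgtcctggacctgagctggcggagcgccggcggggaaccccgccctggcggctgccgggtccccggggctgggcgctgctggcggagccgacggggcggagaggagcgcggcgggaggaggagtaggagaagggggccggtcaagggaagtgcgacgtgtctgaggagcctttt
*Cyp2b10* promoter, chr7:25897408-25897707, plus strand: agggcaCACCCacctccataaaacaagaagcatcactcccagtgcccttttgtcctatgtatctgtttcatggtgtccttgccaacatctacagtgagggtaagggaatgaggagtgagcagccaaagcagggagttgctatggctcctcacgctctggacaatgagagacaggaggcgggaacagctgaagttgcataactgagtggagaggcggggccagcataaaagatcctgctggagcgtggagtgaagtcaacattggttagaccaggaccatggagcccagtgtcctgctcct
*Gstm5* promoter, chr3:107895604-107895903, plus strand: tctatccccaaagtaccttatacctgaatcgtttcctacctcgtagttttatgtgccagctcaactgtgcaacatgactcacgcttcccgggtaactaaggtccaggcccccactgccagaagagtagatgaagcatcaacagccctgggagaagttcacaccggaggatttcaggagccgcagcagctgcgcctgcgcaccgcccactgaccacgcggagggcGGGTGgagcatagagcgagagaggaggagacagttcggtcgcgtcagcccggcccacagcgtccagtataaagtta
*Gstm2* promoter, chr3:107986371-107986670, minus strand: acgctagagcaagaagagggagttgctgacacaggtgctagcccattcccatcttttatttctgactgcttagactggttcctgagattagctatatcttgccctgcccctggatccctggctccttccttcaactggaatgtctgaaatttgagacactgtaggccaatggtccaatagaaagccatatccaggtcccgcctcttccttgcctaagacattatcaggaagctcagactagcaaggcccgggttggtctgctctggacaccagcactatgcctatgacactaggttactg
The element occurred once in the windows of *Papss2*, *Cyp2b10* and *Gstm5* and 0 times in those of *Fmo9* and *Gstm2*, and a second annotated start of *Papss2* held 2. Among all 32851 promoter windows 57.52% hold at least 1, and of the 97 windows of the 81 members with an annotated promoter 50.52% do. GCGTG, the core of the aryl hydrocarbon receptor's element, occurred 2 times in each of *Cyp2b10* and *Gstm5* and in none of the other 3 windows shown, with 32.39% of all windows holding it. TGACNNNGC, the core of the antioxidant response element, occurred once, in *Gstm5*, and in 12.39% of all windows. All were searched on both strands. In *Gstm5* 1 pair of matches to different motifs overlapped, and in the other windows none did. These are matches of letters and say nothing of binding.

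Genes that work beside these families were read from 6 lists, chosen with earlier results of these data known. Of 123 measured entries 1 rose, 1 fell and 121 did not pass, and the 1.63% that passed is near the 1.04% of all genes. On the list of glutathione synthesis, recycling and other glutathione transferases (22 genes, median difference 0.039), *Slc7a11*, the cystine carrier that supplies glutathione synthesis, rose by 0.88 ± 0.11 (SE; limma adjusted p = 0.0164), reading 10.04, 9.99 and 9.73 on the arrays labelled mutant, against 8.99, 9.10 and 9.02 on the arrays labelled control. On the list of sulfate supply, PAPS transport and sulfate removal (25 genes, median -0.041), *Slc26a9*, an epithelial anion transporter of the sulfate carrier family, fell by 0.83 ± 0.14 (adjusted p = 0.0436). It read 8.97, 9.22 and 9.33 on the arrays labelled mutant, against 10.16, 9.80 and 10.05 on the arrays labelled control. No gene passed on the other 4 lists. Among the receptors and P450 partners (16 genes, median 0.019), the electron donors *Cyb5r3* and *Cyb5a* differed by -0.42 ± 0.092 and 0.65 ± 0.15. Among other oxidation and reduction enzymes (29 genes, median -0.095), the alcohol dehydrogenase *Adh1* differed by -1.11 ± 0.25 and the aldo-keto reductase *Akr1b8* by 0.81 ± 0.19. Among transporters (18 genes, median 0.0047), the glutathione conjugate exporter *Abcc1* differed by 0.52 ± 0.12 and the anion transporter *Slco3a1* by -0.63 ± 0.14. Among other conjugation enzymes (13 genes, median 0.026), *Ugt2b34* and *As3mt* differed by 0.51 ± 0.13 and -0.37 ± 0.20, both under the detection level.

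Markers of several cell types other than squamous epithelium were read on the same arrays. Each of the 17 fibroblast and lamina propria markers had a lower mean in the mutant group, and *Col1a2*, *Sparc* and *Thy1* fell. The mean of the list lay between 6.84 and 7.05 on the arrays labelled mutant, against 7.50 to 8.20 on the arrays labelled control. Of 10 smooth muscle markers 9 were lower, with list means of 6.96 to 7.58 on the arrays labelled mutant and 7.72 to 8.29 on the arrays labelled control. In RNA from a tissue, fewer cells of a type and less RNA per cell cannot be told apart, and the part of these cells in the lower signal of *Gstm5*, *Gstm2*, *Gstm3* and *Fmo2* was not tested. Within the controls, the fibroblast list was lowest in control 1 (7.50, against 8.12 and 8.20 in controls 2 and 3). *Gstm5* was highest there (8.76) and *Fmo2* was level across the 3. *Gstm2* (9.09, against 8.90 and 9.26) and *Gstm3* (7.96, against 7.78 and 8.31) lay between controls 2 and 3. *Cyp1b1*, also expressed in fibroblasts, was lowest in control 1 like the list (5.11, against 6.35 and 6.81 in controls 2 and 3). With 3 control animals, a relation of these genes to the list was not tested. The mean of the skeletal muscle list ranged from 6.4 to 9.21 on the arrays labelled mutant and from 6.23 to 10.66 on the arrays labelled control, with no separation of the groups. The list of squamous epithelium markers lay between 10.88 and 11.02 on the arrays labelled mutant, against 10.82 to 10.92 on the arrays labelled control. The adipocyte list lay between 5.25 and 5.39 on the arrays labelled mutant, against 4.82 to 4.91 on the arrays labelled control, and *Fabp4*, a fatty acid carrier, held most of that step (2.40 ± 0.44, SE; limma adjusted p = 0.0630). Without *Fabp4*, left out after its values were seen, the other 6 genes averaged 4.88 to 5.07 on the arrays labelled mutant and 4.74 to 4.93 on the arrays labelled control, which overlap. On the macrophage and dendritic cell list *Cd68* rose by 1.11 ± 0.17 (adjusted p = 0.0304) and *Lyz2* fell by 1.57 ± 0.27 (adjusted p = 0.0463), while the list's means overlapped, at 5.81 to 6.43 on the arrays labelled mutant and 5.93 to 6.30 on the arrays labelled control. The mast cell list lay between 3.74 and 3.82 on the arrays labelled mutant, against 3.91 to 4.01 on the arrays labelled control, with 1 of its 8 genes detected in controls and none past the threshold. The part of these cells in the values of the 94 genes was not tested. The hepatocyte list lay between 3.70 and 3.98 on the arrays labelled mutant, against 3.81 to 3.85 on the arrays labelled control.

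**Figure D5:**
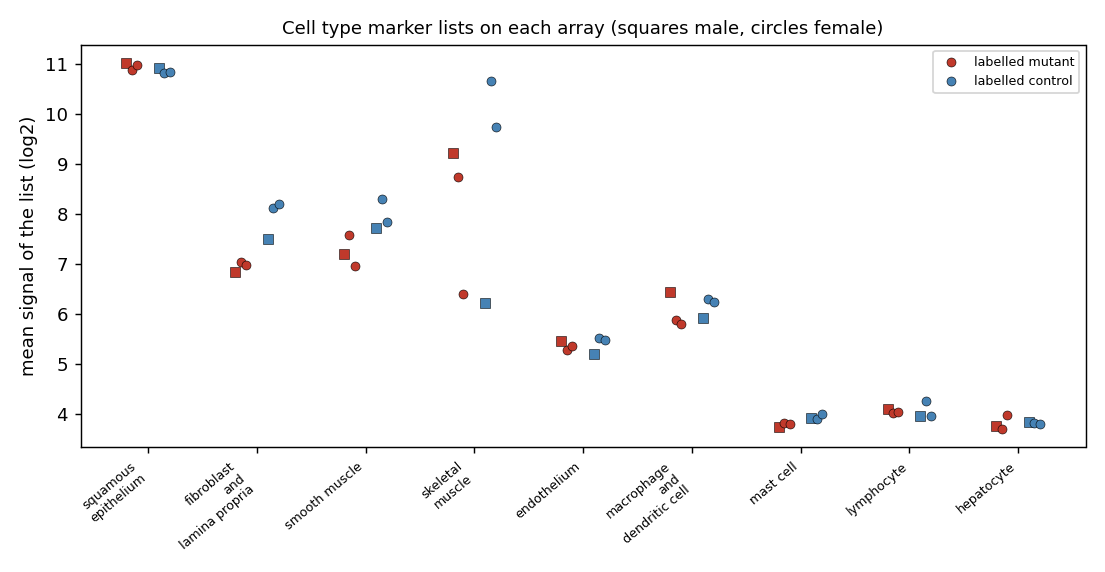
Mean signal (log2) of 9 lists of cell type markers on the 6 arrays, mutant in red to the left and control in blue to the right within each list, with squares for males and circles for females. The fibroblast and smooth muscle means of the arrays labelled mutant lie below those of the controls, and the skeletal muscle means vary from animal to animal in both groups.

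The arrays did not contribute evenly. Among the 34 genes detected in at least 1 group, the male mutant held the lowest of the 6 values in 12 and the highest in 7, where over all 11668 detected genes it held the lowest in 19.7% and the highest in 20.2%. Controls 1 and 3 each held the highest value in 9 of the 34 (26.5%), where over all detected genes they held it in 18.6% and 11.7%. The male mutant was highest in *Papss2*, *Cyp2b10*, *Cyp2c65*, *Cyp2c66*, *Gstp3*, *Gsto1* and *Sult1d1*, and lowest in 5 *Gstm* genes (*Gstm1*, *Gstm2*, *Gstm3*, *Gstm6* and *Gstm7*), in *Fmo2* and *Fmo5*, *Cyp2s1*, *Cyp3a13* and *Cyp2d37-ps*, and in *Gsta4* and *Gstt3*. In 5 of the 34 genes, *Cyp1b1*, *Cyp2d22*, *Cyp2u1*, *Gstm4* and *Gstp1*, the male pair differed in the direction opposite to females whose genotypes did not overlap. Of all 11668 detected genes 14.8% did the same, so 5 of 34 is near the background. With 1 male a group, sex and animal cannot be told apart.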

How the data were processed

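Signals of 28853 probe sets on 6 Affymetrix arrays, 1 per animal, were read from the deposited table of log2 values. Total RNA (100 ng) was amplified from a poly(T) primer, per the labels' protocols. The authors used Partek 6.4, per the submitters' processing notes, and how background, normalization and summarization were done is not given in the sources used here. Those steps affect differences of dim genes most. The range of the values shows the log2 scale. Precision is limited by the 3 arrays a group.

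Gene names came from the platform annotation (21789 name 1 gene, 1621 several, 5443 none here), with symbols updated through Entrez identifiers to GRCm38.p6 for 21698 and left as annotated for 91. Mutant was compared with control by limma 3.58.1 in R 4.3.3 (a two-sided moderated test on genotype with 4 residual degrees of freedom, 7.58 once moderated), Benjamini-Hochberg over 19938 genes, threshold 0.05. With 3 arrays a group the smallest exact permutation p is 0.1, so no such test was made. The sex difference was an interaction term. Named were members past the threshold and, per family, up to 4 detected members with the highest control mean and up to 3 with the smallest p; on other lists, up to 4 passing genes or the 2 with the smallest p. Members and lists were chosen with earlier results of these data known. Steps were tested on simulated data. Annotation and plots used Python 3.11.15 with matplotlib 3.10.9. Alternatives covered normalization, centring, dim genes, probe sets, replicate number, sex, variance models, array weights, a 1.5-fold minimum, the detection level and each array left out.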

Additional observations from a re-analysis of the deposited data

How the results depend on the processing

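Of the 94 genes, 5 passed, and between 4 and 6 passed with quantile normalization, median centring, without dim genes, with probe sets averaged or all tested, with the replicate block, an intensity trend, array weights or a 1.5-fold minimum. The count was 8 with sex as a covariate, 3 in the females alone, 0 without moderation of the variances (limma with moderation gave 16 at an unadjusted p under 0.05) and 1 to 3 with an array left out. Over all genes, 207 passed, and 81 with the replicate block, 83 in the females alone, 7 without moderation, 370 with array weights and 44 to 193 with an array left out. The count over all genes is not given here for the other settings. The 8 with sex as a covariate therefore cannot be set against a share of all genes, and are not read as a result about the members. The 5 genes kept their direction in all 18 alternatives. With the replicate block 4 of the 94 passed, *Fmo9*, *Cyp2b10*, *Cyp2c65* and *Cyp2c66*, and none fell. Same-numbered animals deviated with correlations of -0.17, 0.090 and -0.10 across genes. No array correlated best with its own number, so the numbers were not taken as pairs.

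Differences near 0 turned in sign. In the females alone *Gsta4* was 0.083 and *Gstt3* 0.0089, and with array weights *Gsto1* was -0.013. With an array left out *Gsta3* ranged from -0.057 to 0.34, *Gsta4* from -0.15 to 0.024, *Gsto1* from -0.053 to 0.12 and *Papss1* from -0.16 to 0.057. The cause was not tested. Scaling moved the centre little: over all genes the median difference, 0.022, became 0.017 with quantile normalization and 0.058 with median centring. With the array median as the detection level, 25 of the 94 genes were detected in controls in place of 31. Signals under 4.72 limit what can be seen, and so would signals near the array maxima.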

Other observations

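Probe sets that name several genes of these families gave values outside the comparison. A probe set naming *Cyp2a5* and *Cyp2a4* read 4.07, 4.49 and 6.31 on the arrays labelled mutant, against 7.93, 4.66 and 8.69 on the arrays labelled control, a difference of -2.14 ± 1.04 (SE; limma over all probe sets, adjusted p = 0.525). The arrays of each group ranged widely and the groups overlapped. The 4 probe sets naming *Gsta1*, *Gsta2*, *Gm10639* and *Gm3776* differed by 0.16 to 0.22, with adjusted p between 0.626 and 0.717, and the 2 naming *Gstp1* and *Gstp2* by 0.31 and 0.30 (adjusted p = 0.558 and 0.584).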
